A study of Caenorhabditis elegans with 15 samples.

Results

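The genes described here encode 8 proteins that build meiotic chromosomes: the synaptonemal complex proteins SYP-1, SYP-2 and SYP-3, the chromosome axis proteins HTP-1, HTP-3 and HIM-3, the meiotic cohesin subunit REC-8, and LAB-1, which marks the long arms of paired chromosomes. They were chosen by name, and every probe set whose platform annotation gives 1 of these symbols alone was taken. This found all 8 genes, of 17118 with a probe set of their own, and 9 of 22548 probe sets on an Affymetrix C. elegans expression array, 1 for each gene and a second one for him-3. No probe set with several symbols named a member. The probe sets of syp-2, syp-3 and rec-8 and the second one of him-3 have the suffix _s_at, which marks probes that match more than a single transcript. By the RefSeq gene table of WBcel235, 3 of the genes lie on chromosome I (htp-3, syp-3 and lab-1), 3 on chromosome IV (htp-1, him-3 and rec-8) and 2 on chromosome V (syp-1 and syp-2).

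The arrays measured RNA recovered with GLD-1, an RNA-binding protein of the STAR family that represses translation of many messages in the hermaphrodite gonad. There were 15 arrays, 3 in each of 5 groups, all from whole worms at the young adult stage. In set 1, the anti-FLAG immunoprecipitation (IP) and the control anti-MYC IP were both made from gld-1(q485); ozIs2 worms, which carry a mutant gld-1 allele and a transgene for GLD-1 fused to GFP and FLAG and hold no MYC tag. In set 2, the anti-FLAG IP of that tagged strain was paired with an anti-FLAG IP of wild type (N2), which makes untagged GLD-1. The fifth group, called input, was total RNA taken from the tagged strain without IP. Strategy 1 is FLAG minus MYC in set 1, and strategy 2 is tagged minus N2 in set 2. The strategies share no array, but the fit gave each probe set a common estimate of spread over all IP groups, so its SEs are equal in both. All values are log2 signals, so that a difference of 1 is 2-fold, and adjusted p-values come from limma fitted over all 22548 probe sets of the 12 IP arrays. The labels do not say that replicates came from separate cultures, so the p-values measure the spread between these arrays.

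In meiotic prophase each chromosome is organised along an axis of cohesin and HORMA-domain proteins, and the synaptonemal complex then joins the axes of homologous chromosomes along their length. In C. elegans this happens in the transition and pachytene zones of the gonad, where GLD-1 protein is abundant. LAB-1 binds the axis and keeps the Aurora B kinase AIR-2 from releasing cohesion along the long arm of each bivalent before it should.

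IP arrays gave much lower signals than input. The median signal of 92 probe sets of ribosomal protein genes, an abundant RNA that serves as a measure of background, was 5.56 to 9.69 in the FLAG IP and 6.19 to 9.10 in the MYC IP of set 1, 6.53 to 7.69 in the tagged and 6.27 to 7.75 in the N2 FLAG IP of set 2, and 12.8 to 13.1 in input. The tagged gene, gld-1, was 5.48 ± 0.575 (SE) higher in strategy 1 and 5.55 ± 0.575 higher in strategy 2 (limma adjusted p = 0.00231 and 0.000945). These values come from its probe set with the higher input mean (9.82). A second gld-1 probe set, dim in input (mean 3.40), gave 0.35 and 0.51 and was called in neither strategy (limma adjusted p = 0.322 and 0.144). FLAG replicate 1 of set 1 was the array with the lowest ribosomal signal. Of 5 genes that mark germline and oocytes, 3 were called higher in strategy 1 (oma-1, rme-2 and puf-5) and 4 in strategy 2 (the same and pgl-1). The remaining gene, glh-1, had the highest input mean of the 5 (11.36) and was called in neither. Its differences were 0.43 and 0.83 (limma adjusted p = 0.763 and 0.5), so the calls did not extend to every germline marker. Of the marker genes of muscle, intestine, hypodermis and sperm, 0 were called in either strategy. Among the 4 sperm genes, 0 reached log2 5 on every input array, so a call could hardly arise for them. Of 3 neuron markers, unc-119 and snb-1 were called in strategy 2 (2.84 and 3.64) and 0 in strategy 1. The third, rab-3, gave 0.08 in strategy 1 and -0.03 in strategy 2, with 2 or 3 arrays of each IP group within 0.1 of the lowest value. The array means of the neuron list were 3.67 to 5.29 in the FLAG and 2.80 to 3.83 in the MYC IPs of set 1, and 4.99 to 5.49 in the tagged and 2.85 to 3.28 in the N2 IPs of set 2. Their part in the results was not tested.

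Transcripts of lab-1 were recovered with tagged GLD-1, and those of the other 7 genes passed the test in neither strategy. The lab-1 signal (WBGene00007278) was 3.80, 5.38 and 5.85 in FLAG replicates 1, 2 and 3 of set 1, against 2.57, 2.91 and 2.67 in the MYC IPs. In set 2 it was 7.09, 6.63 and 6.02 in the tagged IPs, against 2.64, 2.79 and 2.89 in the N2 IPs. Every tagged FLAG array lay above every control array in both sets. The lowest value on the control arrays was 2.49 to 2.53, so the lab-1 controls lay at most 0.39 above it. The difference was 2.30 ± 0.475 (SE; 4.92-fold) in strategy 1, with an adjusted p of 0.0422 in the limma fit. It was 3.81 ± 0.475 (14-fold) in strategy 2, with an adjusted p of 0.00225. This SE pools groups of unlike spread, with SDs of 1.08 in the FLAG IP and 0.173 in the MYC IP of set 1. In set 2 the SDs were 0.537 in the tagged and 0.124 in the N2 IP. Because the controls lay this near the floor, both folds depend on it and are not exact sizes. Under the 4 other scalings tried, the difference ran from 1.08 to 2.32 in strategy 1 and from 2.22 to 3.83 in strategy 2. The strategy 1 call was narrow: with unchanged difference it ended with the 6 arrays of set 1 alone (adjusted p = 0.428), with all 15 arrays in the fit (0.0916), with the replicate number as a block (0.119) and with that block within each set (0.0822), and under cyclic loess the difference was 1.08 (0.099). It also ended without any single array other than FLAG replicate 1 of set 1 (adjusted p = 0.0552 to 0.19), and without that replicate the difference was 2.90 (adjusted p = 0.000442). In strategy 2 lab-1 was called with each array left out in turn (adjusted p = 4.85e-05 to 0.0137), with a difference of 3.55 to 4.09. The difference between the strategies, -1.51 ± 0.672, was not called (limma adjusted p = 0.997). By that test limma called 0 of 22548 probe sets higher in strategy 1 than in strategy 2, and calls in the other direction were not counted. At an unadjusted p below 0.05 there were 133 positive and 222 negative probe sets.

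**Figure D1:**
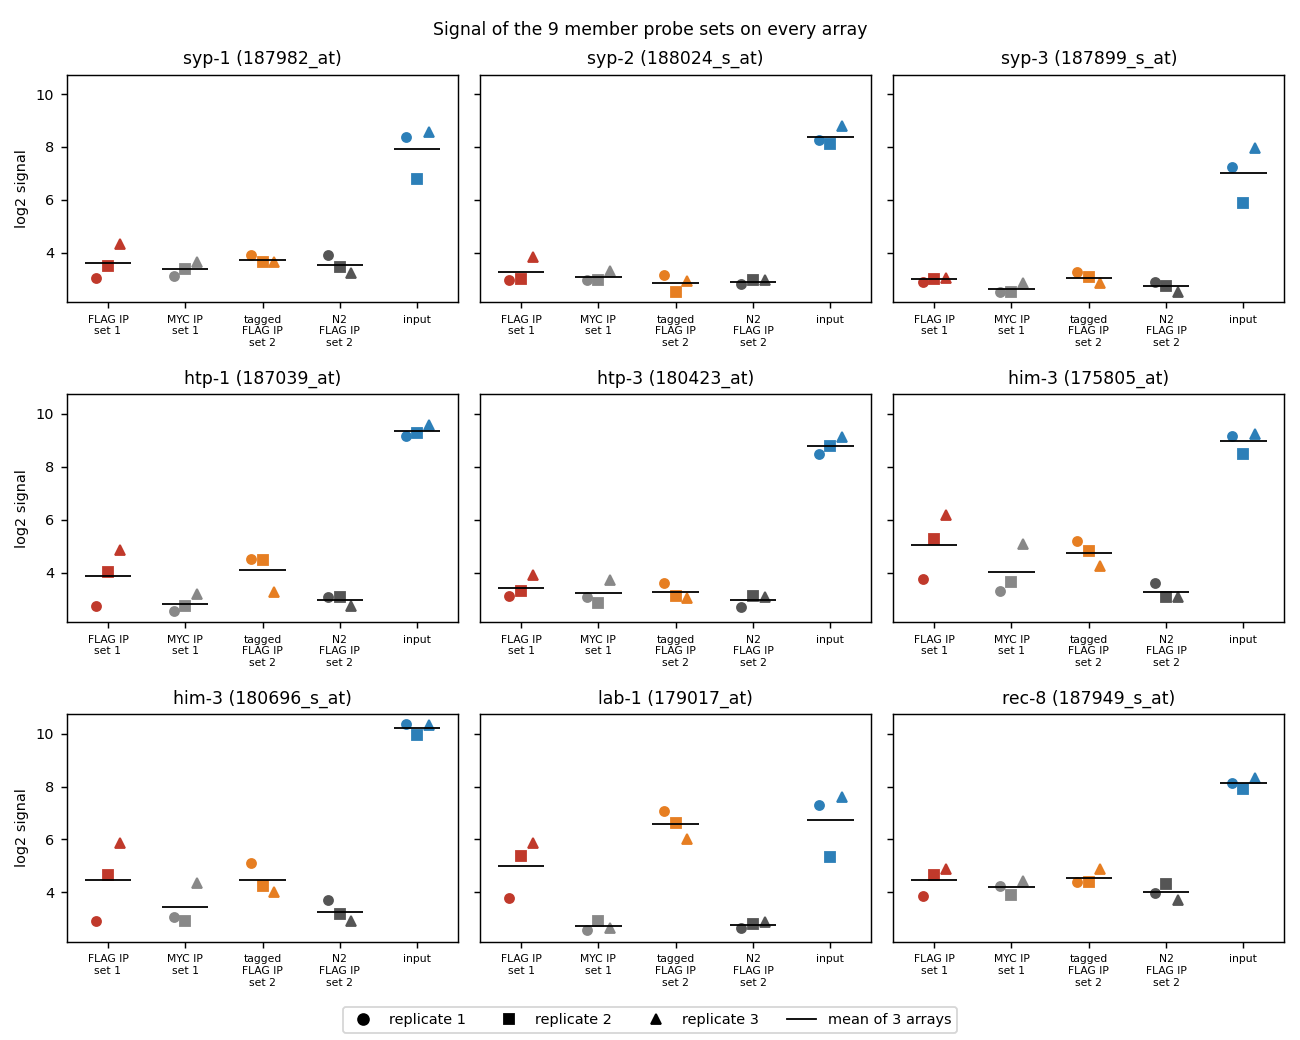
Log2 signal of the 9 probe sets (vertical axis) on every array of the 5 groups, with 1 marker per array, the marker shape giving the replicate number and the line the mean of 3. For lab-1 the tagged FLAG arrays (3.80 to 7.09) lie clear of the MYC and N2 arrays (2.57 to 2.91), while for syp-1, syp-2 and htp-3 tagged and control arrays overlap in both sets. Levels of different probe sets are not comparable with each other.

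Among the axis genes, him-3, htp-1 and htp-3 encode related HORMA-domain proteins, with HTP-3 the one that recruits the others to the axis. The him-3 probe set with no suffix (WBGene00001862) read 3.75, 5.26 and 6.17 in the FLAG IPs, against 3.31, 3.63 and 5.08 in the MYC IPs. In set 2 it read 5.20, 4.81 and 4.24 in the tagged IPs, against 3.62, 3.09 and 3.08 in the N2 IPs. The set 1 groups overlapped and the set 2 groups did not. The differences were 1.05 ± 0.64 (SE) in strategy 1 and 1.49 ± 0.64 in strategy 2, and neither was called (limma adjusted p = 0.328 and 0.144). The strategy 1 value was 1.70 without FLAG replicate 1 of set 1 (adjusted p = 0.0555) and 0.49 without FLAG replicate 3 (adjusted p = 0.766). It was negative with quantile normalization (-0.30) and cyclic loess (-0.16), and the strategy 2 value was -0.10 with cyclic loess. The second him-3 probe set gave 1.03 ± 0.703 and 1.19 ± 0.703 (adjusted p = 0.365 and 0.237), with 2.92, 4.67 and 5.85 in the FLAG IPs, against 3.08, 2.92 and 4.34 in the MYC IPs. Its strategy 1 value was 1.81 without FLAG replicate 1 and 0.34 without FLAG replicate 3, and its strategy 2 value -0.01 with cyclic loess. Its set 2 values were 5.10, 4.24 and 4.02 in the tagged IPs, against 3.70, 3.18 and 2.91 in the N2 IPs, with no overlap. Both him-3 probe sets thus had their 2 groups apart in strategy 2 alone, without passing the adjusted test.

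For htp-1 (WBGene00002032) the signal was 2.72, 4.03 and 4.86 in the FLAG IPs, against 2.53, 2.73 and 3.20 in the MYC IPs. In set 2 it was 4.51, 4.49 and 3.25 in the tagged IPs, against 3.08, 3.08 and 2.73 in the N2 IPs. FLAG replicate 1 was within the MYC range, and in set 2 tagged replicate 3 exceeded the highest N2 array only narrowly. The differences were 1.05 ± 0.527 and 1.12 ± 0.527 (limma adjusted p = 0.322 and 0.155). Without FLAG replicate 1 of set 1 the strategy 1 difference was 1.63 and was called (limma adjusted p = 0.048), and without FLAG replicate 3 it was 0.56 (adjusted p = 0.749). The closely related paralog htp-2, with which htp-1 shares most of its coding sequence, gave 0.72 ± 0.386 and 0.82 ± 0.386 (adjusted p = 0.322 and 0.156), and how far each probe set detects the other transcript was not tested.

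For htp-3 (WBGene00002034) tagged and control arrays overlapped in both sets. The FLAG IPs read 3.10, 3.3 and 3.90, against 3.08, 2.86 and 3.72 in the MYC IPs, and the tagged IPs of set 2 read 3.62, 3.11 and 3.03, against 2.71, 3.11 and 3.08 in N2. The differences of 0.22 ± 0.282 and 0.29 ± 0.282 were not called (limma adjusted p = 0.646 and 0.479). Their 95% intervals ran from -0.42 to 0.86 and from -0.35 to 0.93, so a change as large as that of lab-1 lay outside both.

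REC-8 is the kleisin, the ring-closing subunit, of a meiotic cohesin that holds sister chromatids together. Its transcript (WBGene00004333) read 3.86, 4.65 and 4.87 in the FLAG IPs, against 4.24, 3.91 and 4.44 in the MYC IPs. In set 2 it read 4.39, 4.40 and 4.88 in the tagged IPs, against 3.98, 4.33 and 3.71 in the N2 IPs. The set 2 groups were apart by a small gap between tagged replicate 1 and N2 replicate 2. The differences were 0.26 ± 0.283 and 0.55 ± 0.283 (limma adjusted p = 0.573 and 0.184). The strategy 1 value was 0.56 without FLAG replicate 1 of set 1 and 0.06 without FLAG replicate 3, and in both strategies it was negative with quantile normalization (-1.19 and -1.22) and cyclic loess (-0.98 and -1.08).

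The SYP proteins form the central region that bridges the paired axes. For syp-1 (WBGene00006375) the FLAG IPs read 3.03, 3.51 and 4.32, against 3.13, 3.38 and 3.66 in the MYC IPs, and the tagged IPs of set 2 read 3.92, 3.66 and 3.66, against 3.90, 3.47 and 3.23 in N2. The groups overlapped in both sets, with differences of 0.23 ± 0.309 and 0.21 ± 0.309 (limma adjusted p = 0.652 and 0.65). Without FLAG replicate 1 of set 1 the strategy 1 value was 0.53, and without FLAG replicate 3 it was -0.12. Under 2 of the scalings tried the syp-1 difference in strategy 2 was negative and called lower, at -0.86 with quantile normalization (limma adjusted p = 0.00748) and -0.61 with cyclic loess (adjusted p = 0.0162).

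For syp-2 (WBGene00006376) the FLAG IPs read 2.96, 3.01 and 3.85, against 2.98, 2.97 and 3.3 in the MYC IPs, and the tagged IPs of set 2 read 3.14, 2.52 and 2.93, against 2.81, 2.96 and 2.97 in N2. Tagged replicate 2 was within 0.1 of that array's lowest value. The differences, 0.19 ± 0.243 and -0.05 ± 0.243, differed in sign, and neither was called (limma adjusted p = 0.637 and 0.909).

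For syp-3 (WBGene00006377) the FLAG IPs read 2.91, 3.03 and 3.05, against 2.53, 2.52 and 2.85 in the MYC IPs, with no overlap, and the tagged IPs of set 2 read 3.25, 3.07 and 2.85, against 2.90, 2.76 and 2.53 in N2. The differences were small but similar, 0.36 ± 0.133 and 0.33 ± 0.133, and were not called (limma adjusted p = 0.3 and 0.144). MYC replicates 1 and 2 and N2 replicate 3 were within 0.1 of their arrays' lowest values.

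**Figure D2:**
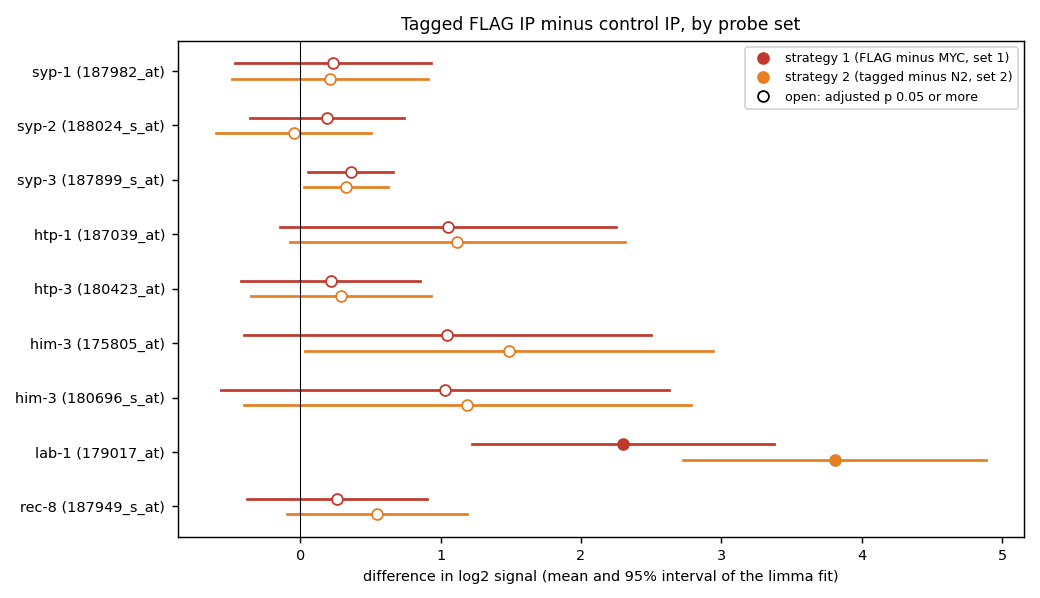
Difference in log2 signal (horizontal axis) between tagged FLAG IP and control IP for each probe set, with points for the limma estimate and bars for its 95% interval, strategy 1 above strategy 2, filled where adjusted p was under 0.05. The 2 lab-1 points, 2.30 and 3.81, are the filled ones, and the intervals of the 3 syp genes, htp-3 and rec-8 end below 1.2.

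Seen as a group, 1 of the 9 probe sets was called higher in each strategy, lab-1, and 0 were called lower. Across the array 2.33% of probe sets were called higher in both strategies, and 0.0577% and 0.173% were called lower in strategies 1 and 2. Calls of higher signal covered 2.41% of probe sets in strategy 1 and 5.47% in strategy 2, and among the 7522 probe sets at log2 5 or more on every input array, which include all 9 members, 7.01% and 15.4%. A count of 1 in 9 is near this background. At an unadjusted p below 0.05, 2 of 9 were higher in strategy 1 (syp-3 and lab-1) and 3 in strategy 2 (syp-3, lab-1 and him-3 with no suffix), against 8.52% and 11.1% of all probe sets and 23.3% and 30% of those detected in input. Groups without overlap were found for 2 member probe sets in strategy 1 (syp-3 and lab-1) and 5 in strategy 2 (htp-1, both of him-3, lab-1 and rec-8), against 6.14% and 14.9% of all probe sets and 16.2% and 40.7% of those detected in input. With 1 probe set per gene, the median difference of the 8 genes was 0.31 in strategy 1 and 0.44 in strategy 2. It was -0.03 and -0.03 over all probe sets and 0.24 and 0.26 over those detected in input. All 9 differences were positive in strategy 1 and 8 in strategy 2, but with quantile normalization 4 and 5 were, and with cyclic loess 4 and 3, so the direction of most depended on the scaling. With no suffix, him-3 was among those that turned negative, while lab-1, htp-1 and syp-3 stayed positive under these scalings. The lab-1 difference was positive under all 4 scalings tried, at 1.08 to 2.32 in strategy 1, where cyclic loess and centring on ribosomal protein genes ended the call, and 2.22 to 3.83 in strategy 2, where none did.

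The average of the 2 strategies, which uses all 12 IP arrays, gave the same call. For lab-1 it was 3.05 ± 0.336 (limma adjusted p = 0.000609), and 1 of 9 probe sets was called, against 7.76% of all probe sets and 21.7% of those detected in input. Close to the threshold were syp-3 (0.34 ± 0.0939, adjusted p = 0.057), htp-1 (1.09 ± 0.373, adjusted p = 0.0623) and him-3 (no suffix, 1.27 ± 0.452, adjusted p = 0.0625). These 3 depended on the arrays and the variance model. Without FLAG replicate 1 of set 1, 6 probe sets were called (lab-1, htp-1, both of him-3, syp-3 and rec-8), 3 without MYC replicate 3 (lab-1, him-3 and syp-3), 2 without tagged replicate 3 of set 2 (lab-1 and syp-3), and 4 with a mean-variance trend and robust eBayes (lab-1, htp-1, syp-3 and him-3). Calls of higher signal over all probe sets moved too with arrays left out, over 196 to 2090 in strategy 1 and 669 to 1933 in strategy 2. Shares over all probe sets for the average under these settings are not given here, so the member counts have no background beside them. The interval for syp-2 ran from -0.32 to 0.46, that for syp-1 from -0.27 to 0.72 and that for htp-3 from -0.20 to 0.71.

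In the tagged FLAG IPs, lab-1 and him-3 (no suffix) both followed ribosomal protein RNA. The same order held in both sets for htp-1, htp-3, syp-3 and the second him-3 probe set, but not in set 2 for syp-1, syp-2 and rec-8. In order of ribosomal median, lab-1 read 3.80, 5.38 and 5.85 at 5.56, 7.78 and 9.69 in the FLAG IPs of set 1, and 6.02, 6.63 and 7.09 at 6.53, 7.16 and 7.69 in the tagged IPs of set 2. On the same arrays him-3 read 3.75, 5.26 and 6.17, and 4.24, 4.81 and 5.20. In MYC replicate 3, the control array with the highest ribosomal median (9.10), him-3 reached 5.08 while lab-1 read 2.67, near the floor. With every array centred on the ribosomal protein genes, the lab-1 difference was 2.25 in strategy 1 and was not called (limma adjusted p = 1), and 3.62 in strategy 2, where it was called (adjusted p = 0.0483). The part of background RNA in the lab-1, him-3 and htp-1 differences was not tested.

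**Figure D3:**
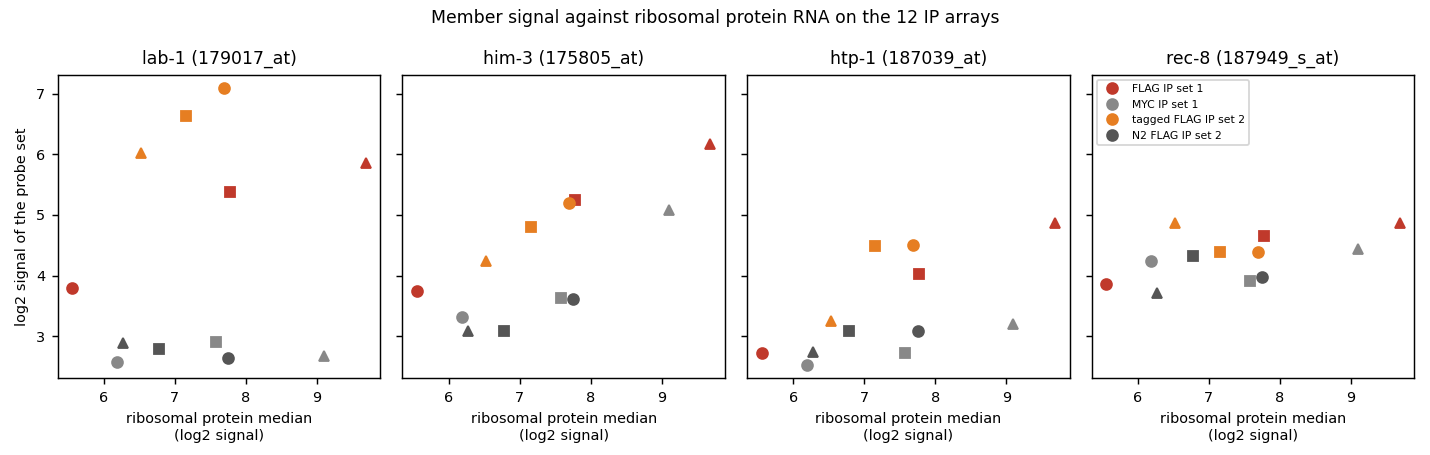
Log2 signal of lab-1, him-3, htp-1 and rec-8 (vertical axis) against the median log2 signal of ribosomal protein genes (horizontal axis) on the 12 IP arrays, with colour for the group and circles, squares and triangles for replicates 1, 2 and 3. For lab-1 the tagged arrays are higher at higher medians within each set (3.80 to 5.85 and 6.02 to 7.09) and the control arrays lie near the floor at 2.57 to 2.91, and for him-3 control and tagged arrays both reach higher signals at higher medians.

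All members were detected before IP. Their input signals exceeded those of 75 to 96.5% of all probe sets. The input arrays read 7.30, 5.33 and 7.60 for lab-1, 7.25, 5.89 and 7.96 for syp-3, and 8.38, 6.80 and 8.58 for syp-1, with replicate 2 the lowest for each. The other members had input means of 8.12 to 10.20 and SDs of 0.212 to 0.418 (n = 3). In RNA of whole worms, fewer germ cells and less of a transcript per cell cannot be told apart, and the input groups hold the tagged strain alone.

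Among the members, lab-1 had the smallest gap between input and each of the tagged FLAG IPs. Its mean difference from input was -1.73 in the FLAG IP and -4.03 in the MYC IP of set 1, and -0.16 in the tagged and -3.97 in the N2 IP of set 2. For the other 8 probe sets it was -5.72 to -3.66 in the FLAG IP of set 1 and -5.75 to -3.57 in the tagged IP of set 2. Among the 7522 probe sets detected in input, lab-1 had a smaller loss than 96.7% in the FLAG IP and 98.5% in the tagged IP, against 71.7% in the MYC IP and 73.9% in the N2 IP. The second him-3 probe set had a smaller loss than 8.75%, 12.2%, 2.11% and 4.11% in the same 4 groups. These are descriptions without a test, because IP signals cannot fall below each array's lowest value, which limits the loss of transcripts that are dim in input. The order of the lab-1 group means was input (6.74), tagged IP of set 2 (6.58), FLAG IP of set 1 (5.01), N2 IP (2.77) and MYC IP (2.71). Input overlapped with the tagged IPs and N2 with MYC, while the tagged arrays of set 2 all exceeded those of set 1.

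Genes with array patterns most like each member were listed as a description. Likeness was the Pearson correlation over the 15 arrays among 7176 probe sets of other genes at log2 5 or more on at least 3 arrays. Because input and IP arrays differ for nearly all of these, high values are common, and since the IP arrays enter the likeness, the differences given beside it are no separate evidence. For lab-1 the 3 most alike were cyp-44A1 (r = 0.988; differences of 2.17 and 3.32 in strategies 1 and 2), capg-1, which encodes a condensin subunit (r = 0.987; 2.03 and 2.82), and trt-1, the telomerase reverse transcriptase gene (r = 0.987; 2.46 and 3.45). All 3 were called in strategy 2 (limma adjusted p = 0.00455, 0.00771 and 0.000964), and trt-1 also in strategy 1 (adjusted p = 0.00925). For htp-1 they were exos-2, eef-1A.2 and ostd-1 (r = 0.997, 0.997 and 0.997), for him-3 (no suffix) his-37, hsp-6 and timm-17B.1 (r = 0.996, 0.996 and 0.995), and for syp-2 C27H6.8, cct-2 and ZK512.2 (r = 0.999, 0.998 and 0.998).

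Other genes of the same structures were measured alongside, and their counts stand against the 7.01% and 15.4% called higher in strategies 1 and 2 among probe sets detected in input. Over all probe sets the shares were 2.41% and 5.47%. Some list genes lie outside the set detected in input. That set holds 4 of the 5 genes named next, 9 of 10 cohesin genes and 8 of 10 synapsis regulators. Of 5 further genes for synaptonemal complex, axis and meiotic kleisin proteins (syp-4, syp-5, syp-6, htp-2 and coh-3), 0 were called in either strategy, with medians of 0.13 and 0.09. The largest differences among them were those of htp-2 and of syp-6 (0.43 ± 0.221 and 0.37 ± 0.221). At unadjusted p under 0.05, 0 of these 5 were higher in either strategy. For the central region, syp-1, syp-2, syp-3, syp-4, syp-5 and syp-6 had differences between -0.05 and 0.43.

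Of 10 genes for cohesin core subunits, loading and release, him-1 was called in both strategies. It encodes the cohesin subunit SMC-1, which forms the ring closed by REC-8. Its first probe set read 6.94, 8.44 and 8.57 in the FLAG IPs, against 2.66, 4.05 and 5.29 in the MYC IPs, and 8.79, 8.61 and 8.02 in the tagged IPs of set 2, against 4.05, 4.29 and 3.54 in N2. No arrays overlapped, and the differences were 3.98 ± 0.657 (15.8-fold, limma adjusted p = 0.016) and 4.52 ± 0.657 (22.9-fold, adjusted p = 0.0044). A second him-1 probe set was called too (2.73 and 3.56, adjusted p = 0.0251 and 0.00377). The partner subunit genes smc-3 and scc-3 gave 0.25 and 0.18 in strategy 1 and 0.33 and 0.07 in strategy 2, and were not called (adjusted p = 0.553 and 0.694, and 0.369 and 0.883). The securin gene ify-1 had large but variable differences of 2.07 ± 0.761 and 2.67 ± 0.761 (adjusted p = 0.295 and 0.0907). The list medians were 0.29 and 0.36.

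LAB-1 acts with protein phosphatase 1 against Aurora B, and the genes of that balance were split. Of 6 genes, bir-1, which encodes the survivin-like partner of Aurora B, was called in both strategies (5.45 ± 0.566 and 6.94 ± 0.566, limma adjusted p = 0.00226 and 0.000454). The Aurora B gene air-2 reached 3.73 ± 0.714 in strategy 2, which was called (adjusted p = 0.0162), while 2.36 ± 0.714 in strategy 1 was not (adjusted p = 0.185), and the difference between strategies was not called (adjusted p = 0.997). The air-2 signal was 3.96, 6.55 and 6.87 in the FLAG IPs, against 3.06, 3.18 and 4.06 in the MYC IPs, and 7.56, 6.79 and 6.47 in the tagged IPs, against 3.51, 3.45 and 2.67 in N2. FLAG replicate 1 alone lay within the control range. The phosphatase genes gsp-1 and gsp-2 gave 0.43 and 0.72 in strategy 1 and 0.23 and 1.59 in strategy 2, and icp-1 and csc-1, for the other passenger complex subunits, 1.11 and 0.38 in strategy 1 and 1.62 and 0.29 in strategy 2. None of these 4 was called in either strategy. The medians of the 6 were 0.92 and 1.60.

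Of 10 synapsis regulators, sun-1, which encodes an inner nuclear envelope protein that links chromosomes to the cytoskeleton for pairing, reached 3.14 ± 0.576 in strategy 2, which was called (limma adjusted p = 0.0132), while 2.24 ± 0.576 in strategy 1 was not (adjusted p = 0.106). Its second probe set was called in neither (1.21 and 1.41, adjusted p = 0.322 and 0.144). The list had 0 and 1 called and medians of 0.28 and 0.13. Of 18 genes for pairing centres, breaks and crossovers, spo-11, the gene for the enzyme that makes meiotic breaks, was called in both strategies (2.12 ± 0.437 and 2.76 ± 0.437, adjusted p = 0.0415 and 0.00652). The break-promoting genes dsb-1 (2.11 ± 0.484, adjusted p = 0.0374) and him-5 (0.43 ± 0.0846, adjusted p = 0.0187) were called in strategy 2 alone, with 1.29 and 0.15 in strategy 1 (adjusted p = 0.306 and 0.322). For him-5 the tagged IPs of set 2 read 3.09, 3.04 and 2.78, against 2.51, 2.51 and 2.60 in N2. The lowest values of the N2 arrays were 2.51 to 2.53, so this call rests on controls at the floor. A second probe set of the crossover gene zhp-3 was called in strategy 2 (0.61, adjusted p = 0.0454), where its N2 arrays also lay at the floor (2.54, 2.51 and 2.53). The first zhp-3 probe set was called in neither strategy (0.65 and 0.71, adjusted p = 0.322 and 0.144). With 1 probe set per gene, 1 and 3 of the 18 genes were called, with medians of 0.25 and 0.45. Of the 18, 14 reached log2 5 on every input array. The called genes spo-11 and him-5 did not, with 4.32 and 4.08 on input replicate 2. The shares among probe sets detected in input are thus no like background for these counts. No gene of the 5 lists was called lower.

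**Figure D4:**
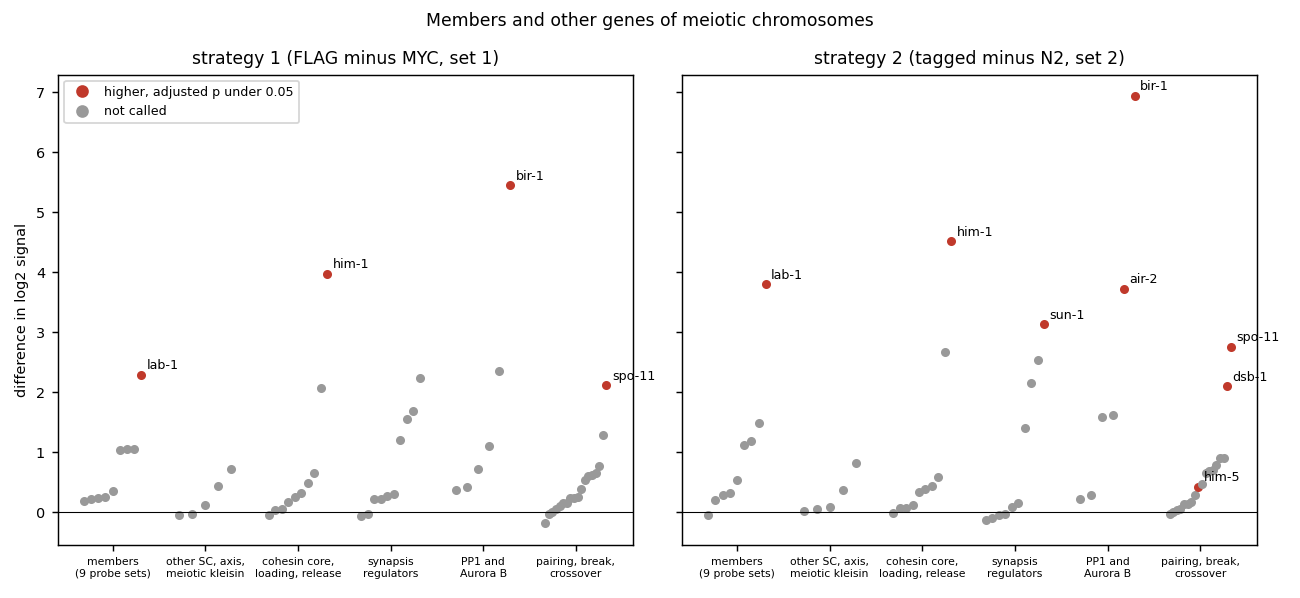
Difference in log2 signal between tagged FLAG IP and control IP (vertical axis) for the 9 member probe sets and for the genes of 5 further lists, with strategy 1 in the left panel and strategy 2 in the right, 1 point per probe set, red and named where called higher. The 5 further synaptonemal complex, axis and kleisin genes lie below 1, the PP1 and Aurora B genes reach medians of 0.92 and 1.60, and bir-1, him-1 and lab-1 stand highest among those called in both strategies.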

How the data were processed

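The deposited values are log2 signals, 1 per probe set and array, which the authors made with GCRMA, per the submitters' processing notes. Its version is not given in the sources used here. GCRMA adjusts background and summarises probes, and each array kept its own lowest value, so changes of dim transcripts are compressed. Groups and replicate numbers came from the sample titles, and 0 value columns lacked a sample. The table held 22625 probe sets, from which the 77 controls of the array were removed. Symbols came from the platform annotation, and all 9 member probe sets matched the RefSeq table of WBcel235 by Entrez ID.

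Group means and contrasts of the 12 IP arrays were estimated by limma (version 3.58.1, R 4.3.3; 8 residual and 0.849 prior degrees of freedom), with two-sided tests, Benjamini-Hochberg adjustment over 22548 probe sets and calls under 0.05. No further normalization or filter was applied. The fit was also run on simulated data. Their noise was independent between arrays, so that run does not cover the shared deviations of same-numbered arrays. An exact permutation test of 3 against 3 arrays cannot go below p = 0.1. The number of arrays limits the precision.

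Members and lists were chosen with earlier results of these data known. A list gene was represented by its probe set with the highest mean, and coh-4, pqn-85, zyg-12 and rad-54 were not analysed here. Named list genes were those called in a strategy and the 2 largest changes where none was, with 3 most alike genes per member. Other genes of these lists are named as partners, chosen after their values were seen. Alternatives were 4 scalings (quantile, array median, ribosomal protein genes and cyclic loess), a filter on low values, other sets of arrays in the fit, another variance model, a stricter threshold, the replicate block and each array left out.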

Additional observations from a re-analysis of the deposited data

Results flagged for a closer look

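The arrays of 1 marker gene lay on opposite sides of the control mean in the 2 sets. The intestinal esterase gene ges-1 read 2.67, 2.62 and 2.69 in the FLAG IPs, against 2.99, 2.72 and 2.76 in the MYC IPs, and 3.05, 3.06 and 3.07 in the tagged IPs of set 2, against 3.09, 3.09 and 2.67 in N2. The difference between strategies was -0.2678 ± 0.159 and was not called (limma adjusted p = 0.997).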

How the results depend on the processing

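In strategy 2, lab-1 alone was called higher under every alternative (syp-1 was called lower with quantile normalization and cyclic loess) except the 6 arrays of the comparison alone (2 member probe sets, with him-3 (no suffix) at adjusted p = 0.0318) and the replicate block within each set (3, with him-3 (no suffix) and syp-3), an alternative chosen after seeing the data. In strategy 1 the count was 0 when arrays were centred on ribosomal protein genes, under cyclic loess, with the 6 arrays alone, with all 15 arrays in the fit, at adjusted p under 0.01, and with the replicate block of either kind, and 0 to 2 with arrays left out. For the average of the strategies it was 2 with the filter on low values, log2 5 on at least 3 IP arrays (2 of the 9 passed), 4 with the trend and robust eBayes, 5 with the replicate block within each set, and 1 to 6 with arrays left out. Shares over all probe sets for the average under these settings are not given, so its member counts have no background beside them. Between the strategies the member count was 0 throughout. The filter used the same IP signals as the test. For lab-1 the 5 IP arrays at log2 5 or more were all tagged FLAG IPs, so its calls under the filter are no separate support.

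All probe sets called higher numbered 543 in strategy 1 and 1233 in strategy 2. These became 177 and 363 when arrays were centred on ribosomal protein genes, 0 and 2601 for the 6 arrays alone, 209 and 639 at adjusted p under 0.01, 228 and 812 with the replicate block, and 933 in strategy 1 with the filter. Strategy 2 gave 2626 with the replicate block within each set. With arrays left out they ranged over 196 to 2090 and 669 to 1933. Calls were 97.7% and 96.9% higher ones as deposited, 66.2% and 62.4% with quantile normalization, and 57.3% and 62.5% with cyclic loess. Centring on ribosomal protein genes moved the median of all probe sets in strategy 2 by -0.19.

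Same-numbered arrays deviated together at r = 0.725, 0.0051 and 0.813 in set 1 and 0.422, 0.0424 and 0.432 in set 2. Numbers 1 and 3 thus varied together in both sets, and number 2 hardly did. The labels do not say whether the numbers mark shared extracts. The main fit did not treat them as pairs, so its SEs take no account of this shared variation. Replicates 1 and 3 of each group correlated best with their own number, as did tagged replicate 2, while FLAG, MYC and N2 replicate 2 did not. With the replicate block the lab-1 difference had an adjusted p of 0.119 in strategy 1 and 0.014 in strategy 2.

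After quantile normalization and cyclic loess, strategy 1 differences turned negative for syp-1 (-0.5676 and -0.4361), syp-2 (-0.244 and -0.0277), htp-3 (-0.2752 and -0.1504), him-3 with no suffix (-0.2974 and -0.1638) and rec-8 (-1.1857 and -0.9753). Strategy 2 differences did so for syp-1 (-0.8636 and -0.6113), htp-3 (-0.2033 and -0.1245) and rec-8 (-1.2188 and -1.0799), and after cyclic loess for him-3 (-0.1026 with no suffix and -0.0142 for the second probe set). With arrays left out, htp-3 ranged from -0.0186 to 0.4664, syp-1 from -0.1182 to 0.5272 and syp-2 from -0.0961 to 0.3445 in strategy 1, and syp-2 from -0.1859 to 0.124 in strategy 2. The median input level of the members, 8.39, was 4.4992 after quantile normalization of all 15 arrays together. The cause of these changes was not tested.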
